A study of Homo sapiens with 11 samples.

Results

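The nuclear-encoded subunits of the mitochondrial respiratory chain were taken as the gene symbols of the count table that begin with NDUFA, NDUFB, NDUFC, NDUFS or NDUFV and a digit, with UQCR, with COX4 to COX8 or with ATP5, together with CYC1 and the 4 SDH genes. The rule found 94 of the 28152 symbols in the table: 40 placed with complex I, 4 with complex II, 11 with complex III, 19 with complex IV and 20 with complex V. Of these, 78 encode subunits expressed across tissues, 6 tissue- or condition-restricted isoforms, 3 paralogs and 1 a regulator, the ATP synthase inhibitor ATP5IF1. The other 6 are transcripts that only share the symbol (NDUFA6-DT, NDUFB2-AS1, NDUFV2-AS1, UQCRBP1, NDUFC2-KCTD14 and ATP5MF-PTCD1). A filter on low counts kept 87 members for testing, 39, 4, 11, 14 and 19 in complexes I to V. COX4I2, COX6A2, COX7A1, COX7B2 and COX8C and both readthrough transcripts did not pass it.

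The respiratory chain passes electrons from NADH (complex I) and succinate (complex II) through complex III to oxygen at complex IV, and the proton gradient made on the way drives ATP synthesis at complex V, the ATP synthase. Complex II is encoded in the nucleus alone, while the other complexes also hold subunits made from mitochondrial DNA, which were not analysed here. NDUFA4 carries a complex I name but is counted here with complex IV, where the protein resides.

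The series is an RNA-seq experiment on tumours grown from cells labelled BT-474, a HER2-amplified breast cancer line, in the mammary fat pad of female athymic nude mice, which lack mature T cells. All animals carried a slow-release pellet of 0.72 mg estradiol and were eligible once a tumour exceeded 95 mm3. The control group (6 libraries, numbered 001 and 003 to 007) received the mannitol and water vehicle, and the treated group (5 libraries, numbered 002 to 005 and 007) received 12 mpk evexomostat, an inhibitor of methionine aminopeptidase 2, also called SDX-7320, injected under the skin on the same schedule. Samples are labelled day 33. The labels give no genotype apart from the tumour's receptor status and no age of the mice. Each library has its own number within its group, but nothing states outright that each came from a separate animal, so p-values measure the spread between these libraries.

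Libraries held 22808033 to 39249329 counts. Vehicle 001 stood apart: its top 100 genes took 23.9% of its counts, against 16.2 to 17.9% elsewhere. Relative to the mean of the 11 libraries, its counts leaned to short transcripts. The slope on log2 length of each gene's log2 level minus its mean over the 11 libraries was -0.19, against -0.064 to 0.068 elsewhere. For all members together and for each complex, edgeR's comparison is therefore given with and without it. DESeq2 and limma were run on all 11 libraries only. Of 8 markers of the labelled line, the keratins KRT8 and KRT18 lay at 167 to 562 and 100.4 to 193 CPM (counts relative to the TMM-scaled library size). ERBB2, the HER2 gene, lay at 26.7 to 66.5, below both keratins in every library. Whether this is the level of an amplified gene was not tested. The luminal factor GATA3 was at 2.94 to 10.2, the epithelial EPCAM at 0.331 to 5.28 and KRT19 at 0 to 1.65, with 0 in vehicle 007. The hormone receptors were near 0, with ESR1 at 0.0362 to 0.6248 and PGR at 0 to 0.143. These low levels of GATA3, EPCAM, KRT19 and the hormone receptors go against the label, and whether the tumours are of that line was not tested. The summed level of 14 skeletal muscle markers lay above every vehicle library in 3 of the 5 evexomostat libraries. It was 17.9 to 38.3 CPM in the vehicle libraries and 35.1, 59.7, 86.7, 514 and 34.8 in evexomostat 002, 003, 004, 005 and 007. All 9 that were tested had estimates above 0 (median log2 fold change 3.31), 7 at an unadjusted p of 0.05, and 1, TNNT1, passed edgeR's threshold (0.97 ± 0.16, adjusted p = 0.0233). Without vehicle 001, edgeR gave a median of 3.23 and again called TNNT1 alone (1.04 ± 0.15, adjusted p = 0.00842). TNNT1 did not follow the myosin MYH1: it gave 31.1 and 28.6 CPM of the sums in evexomostat 002 and 007, where MYH1 was at 0.310 and 0.591. In evexomostat 003 TNNT1 gave 35.4 of the 59.7 CPM. There MYH1, at 3.28, lay below the 8.78 of vehicle 007, while ACTA1, at 9.84, lay above every vehicle library (0.487 to 5.96). CKM (0.0808 to 0.290 CPM), MYLPF (0 to 0.218), TNNT3 (0 to 0.339), MB (0.103 to 0.810) and PVALB (0 to 0.0993) stayed near 0 in every library, evexomostat 005 included. In RNA from a whole tumour piece, fewer cells of a type and less RNA per cell cannot be told apart, and conserved mouse transcripts could be counted with their human partners.

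Promoters were looked at because subunit genes are textbook targets of the factors NRF1 and GABP, the latter of the ETS family. Sequences 250 bases before the annotated start were taken from RefSeq (GRCh38.p14) for 65 of the 78 subunit genes. Among the genes with no entry were ATP5F1B, ATP5F1D, ATP5MC3, ATP5MF, COX6C, CYC1, NDUFB5, NDUFB9, NDUFC2, NDUFS5, SDHC and UQCRB. On either strand, the NRF1 motif, whose matches can be read in the capitals of SDHA and ATP5PO below, was in 21.5% of them and in 5.53% of all 27305 promoters, and the ETS motif CCGGAAG in 26.2% and 8.82%. For the SP1 motif GGGCGG the shares were 56.9% and 42.3%, and for the YY1 motif 1.54% and 0.359%. At least 1 of the NRF1 and ETS motifs was in 44.6% of the subunit promoters and 13.4% of all. The following 5 promoters, 1 for each complex, were chosen after the matches were seen, to show how differently the motifs are arranged. They read 5′ to 3′ along the gene's strand and end at the base before the start, with NRF1 and ETS matches in capitals.
NDUFA13 (complex I, chr19:19515975-19516224, plus strand): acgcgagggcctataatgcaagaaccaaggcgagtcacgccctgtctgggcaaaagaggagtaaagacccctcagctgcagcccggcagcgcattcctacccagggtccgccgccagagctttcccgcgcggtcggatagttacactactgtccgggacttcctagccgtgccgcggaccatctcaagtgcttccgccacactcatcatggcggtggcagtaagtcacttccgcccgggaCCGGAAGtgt
SDHA (complex II, chr5:218070-218319, plus strand): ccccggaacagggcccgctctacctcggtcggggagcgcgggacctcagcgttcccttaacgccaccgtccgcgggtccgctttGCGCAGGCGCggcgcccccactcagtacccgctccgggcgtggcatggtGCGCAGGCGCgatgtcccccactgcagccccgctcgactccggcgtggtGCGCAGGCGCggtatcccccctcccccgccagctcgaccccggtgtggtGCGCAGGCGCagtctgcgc
UQCR11 (complex III, chr19:1605463-1605712, minus strand): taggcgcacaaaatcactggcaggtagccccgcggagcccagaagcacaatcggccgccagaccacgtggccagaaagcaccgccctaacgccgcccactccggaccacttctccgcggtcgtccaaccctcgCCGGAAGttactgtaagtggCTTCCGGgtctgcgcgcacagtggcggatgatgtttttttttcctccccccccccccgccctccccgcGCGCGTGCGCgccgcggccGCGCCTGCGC
COX5B (complex IV, chr2:97645812-97646061, plus strand): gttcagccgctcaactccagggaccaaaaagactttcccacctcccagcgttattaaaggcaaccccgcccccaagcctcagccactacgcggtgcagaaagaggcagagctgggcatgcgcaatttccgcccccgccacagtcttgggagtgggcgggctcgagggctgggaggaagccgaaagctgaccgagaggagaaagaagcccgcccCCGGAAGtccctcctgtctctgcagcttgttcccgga
ATP5PO (complex V, chr21:33915805-33916054, minus strand): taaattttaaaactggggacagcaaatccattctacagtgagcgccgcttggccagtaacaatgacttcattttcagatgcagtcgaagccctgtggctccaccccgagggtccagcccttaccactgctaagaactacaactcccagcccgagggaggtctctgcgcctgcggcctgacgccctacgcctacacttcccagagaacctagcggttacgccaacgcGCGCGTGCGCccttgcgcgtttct
SDHA holds 4 NRF1 matches, UQCR11 2 of each motif, NDUFA13 and COX5B 1 ETS match each and ATP5PO 1 NRF1 match, and no capitals overlap. These are matches of letters and show no binding.

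Together the 94 members took 1.28, 1.31, 1.34, 1.39 and 1.43% of counts in vehicle 003 to 007 and 1.33, 1.60, 1.60, 1.43 and 1.46% in evexomostat 002, 003, 004, 005 and 007. In vehicle 001 they took 2.7%. Leaving that library out, the ranges of the groups overlapped, and evexomostat 003 and 004 were highest. Their muscle marker sums also lay above every vehicle library, that of evexomostat 003 mostly through TNNT1 (35.4 of 59.7 CPM). Evexomostat 005, by far the highest in those markers, took the same share of counts as vehicle 007. Vehicle 001 was the highest of the 11 libraries for 76 of the 87 tested members (26.9% of all 16653 tested genes) and the lowest for 0 (26.4% of all). Its level was a median of 2.62 times the mean of the other 5 vehicle libraries, with a range over members of 0.628 to 7.17, and 60 members were more than 2 times higher there.

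**Figure D1:**
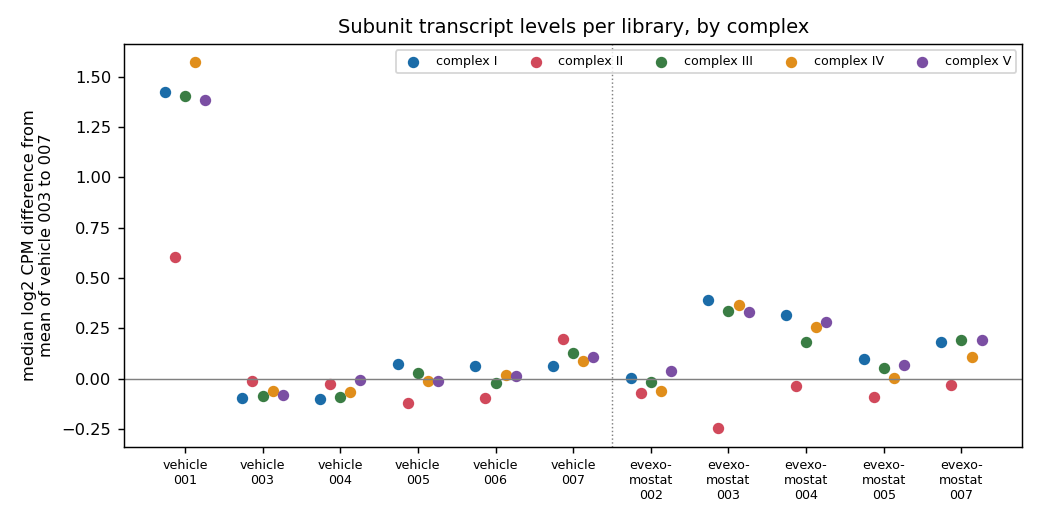
Median over the tested members of each complex of the log2 CPM difference from the mean of vehicle 003 to 007, for each of the 11 libraries (points, 1 colour for each complex; the dotted line divides vehicle from evexomostat). Complexes I, III, IV and V stand at 1.38 to 1.57 in vehicle 001 and complex II at 0.61, while evexomostat 003 is the highest of the remaining libraries for complexes I, III, IV and V and the lowest for II.

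Over all 11 libraries no member passed the threshold. edgeR's quasi-likelihood test called 0 of 87 higher and 0 lower at an adjusted p of 0.05 (background over all genes 0.174% higher and 0.432% lower), and the smallest adjusted p was 0.356, for COX5A. At an unadjusted p of 0.05 it counted 0 members higher (4.82% of all genes) and 1 lower, COX5A (8.55%). DESeq2 (background 1.2% higher and 2.7% lower), limma-voom (0.192% and 0.342%), limma-voom with sample quality weights (2.31% and 4.05%) and limma-trend with a pseudocount of 1 (0.258% and 0.186%) or 0.1 (0.228% and 0.18%) also called 0 members in either direction. At an unadjusted p of 0.05, DESeq2 gave 0 members higher (5.48% of all genes) and 1 lower (9.79%), and limma-voom 0 higher (5.66%) and 0 lower (7.16%). Quality weights gave 10 higher (11.3%) and 0 lower (13.5%), and limma-trend 2 higher (9.18% and 9.08% for the 2 pseudocounts) and 0 lower (4.16% and 4.14%). Most estimates lay below 0, 71 of 87 (55.4% of all genes), with a median log2 fold change of -0.22 beside -0.039 for all genes. No member had groups that did not overlap (1.33% of all genes higher and 1.64% lower).

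Without vehicle 001 the direction of most estimates turned. The median became 0.17 (all genes -0.0025), and 69 of 87 members lay above 0 (49.6% of all genes). Again edgeR's test called 0 members (background 1.98% higher and 3.24% lower), with a smallest adjusted p of 0.0536 for NDUFB6. At an unadjusted p of 0.05, 27 members were higher (10.9% of all genes) and 0 lower (13.5%), and no other tool was run on these 10 libraries. The log2 fold changes of these 27 ran from 0.19 to 0.64, the highest being that of NDUFA6-DT, which only shares the symbol. By complex, 16 of the 27 were placed with complex I, 3 with III, 2 with IV, 6 with V and 0 with II. Of the 27, 25 encode subunits expressed across tissues. Leaving out evexomostat 005 as well, the library with the most muscle marker RNA, gave a median of 0.18 and 26 members higher (9.66%) and 0 lower (12.1%) at an unadjusted p of 0.05, and called 1 member higher, UQCRQ (0.43 ± 0.10, adjusted p = 0.0489), and 0 lower (background 1.01% and 1.56%). The result depends on the scaling: with library sizes in place of TMM factors, 5 members passed the threshold (background 3.35% higher and 2.75% lower), namely NDUFB6 (adjusted p = 0.0376), ATP5PO (0.0398), NDUFS6 (0.0456), NDUFA7 (0.0492) and ATP5IF1 (0.0495). With those sizes 41 members were higher (14.5%) and 0 lower (10.5%) at an unadjusted p of 0.05, whereas over all 11 libraries they gave 0 calls (0.204% and 0.168%), 2 members higher (8.12%) and 0 lower (5.25%). In the 8 libraries whose numbers occur in both groups, which leave out vehicle 001, edgeR called 2 members higher, NDUFB11 (adjusted p = 0.0285) and NDUFA7 (0.0468), and 0 lower (background 1.36% and 3.06%), with 28 higher (10.3%) and 1 lower (14.2%) at an unadjusted p of 0.05. With the replicate number as a block it called 0 (0.145% and 0.5%), with 22 higher (8.48%) and 0 lower (11.6%).

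**Figure D2:**
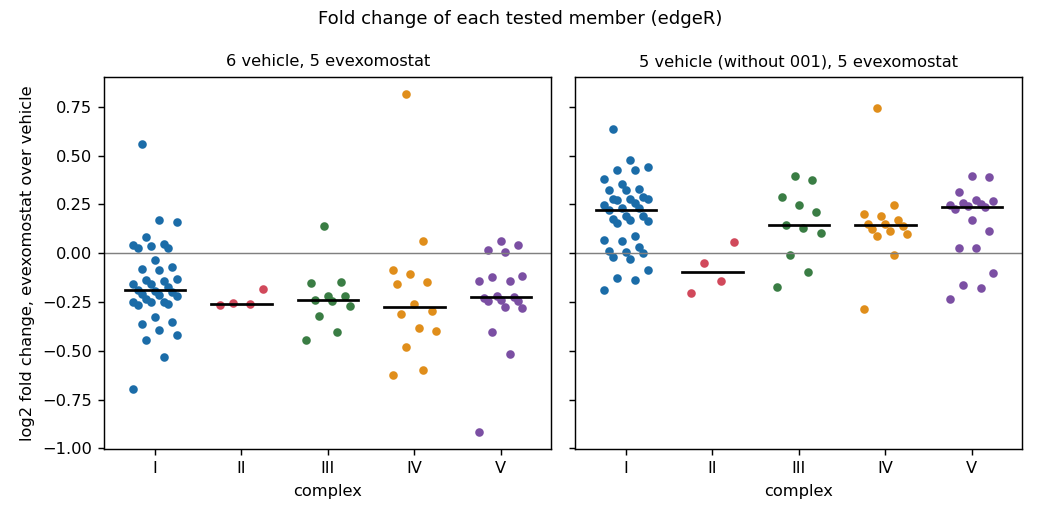
Log2 fold change of evexomostat over vehicle for each tested member (points) by complex, with the median as a bar, from all 11 libraries (left) and without vehicle 001 (right). Medians move from -0.19, -0.26, -0.24, -0.28 and -0.23 in complexes I to V to 0.22, -0.10, 0.15, 0.14 and 0.24.

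Complex I, NADH dehydrogenase, is the largest of the complexes. Its median log2 fold change was -0.19 over all libraries, with 9 of 39 members above 0, and 0.22 without vehicle 001, with 33 above 0. NDUFS5, an accessory subunit and the most abundant complex I transcript, stood at 357, 366, 396, 403 and 401 CPM in vehicle 003 to 007, 1362 in vehicle 001 and 389.6, 598, 501, 433 and 484 in evexomostat 002, 003, 004, 005 and 007. Apart from vehicle 001, 4 of the 5 evexomostat libraries lay above all vehicle libraries. The log2 fold change was -0.19 ± 0.34 (SE; adjusted p = 0.878) with that library and 0.33 ± 0.12 (adjusted p = 0.109) without it. NDUFC2, a membrane-arm accessory subunit, had the largest fall in the complex, -0.69 ± 0.54 (adjusted p = 0.643). It rested on the vehicle 001 value of 82.8 CPM, since the other vehicle libraries were at 10.6 to 12.3 and evexomostat libraries at 11.1 to 18.1. Without vehicle 001 the estimate was 0.32 ± 0.14 (adjusted p = 0.177).

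In the catalytic core of complex I, NDUFS1, which holds iron-sulfur clusters of the electron path, was at 102, 183, 152, 134 and 249 CPM in vehicle 003 to 007, 165 in vehicle 001 and 146, 122, 147, 167 and 134 in the evexomostat libraries in the order given above. Vehicle 007 was the highest and vehicle 003 the lowest, so the evexomostat values lay inside the vehicle range. The log2 fold change was -0.20 ± 0.19 with vehicle 001 and -0.19 ± 0.20 without. For NDUFV1, which binds NADH and FMN, the ranges were 204 to 266 CPM in vehicle 003 to 007 and 219 to 271 with evexomostat, beside 451 in vehicle 001. Adjusted p for both genes, 0.734 and 0.816 over all libraries, missed the threshold.

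Without vehicle 001, 3 complex I members had evexomostat values all above the vehicle values (7 members in all, 3.98% of all genes; 0 were lower, 4.38%). NDUFB6, an accessory subunit of the membrane arm, was at 59.1, 52.9, 60.0, 63.7 and 48.7 CPM in vehicle 003 to 007 and 74.8, 68.0, 82.0, 64.0 and 79.4 in the evexomostat libraries. NDUFV2, an iron-sulfur subunit of the NADH module, was at 60.8, 65.2, 64.7, 70.4 and 67.8 and 75.3, 101, 90.3, 73.7 and 78.6. NDUFV3, an accessory subunit of the same module, was at 35.9, 38.6, 37.1, 34.8 and 40.6 and 41.1, 49.6, 41.1, 41.6 and 43.9. The gaps between groups were small, from 63.7 to 64.0 CPM for NDUFB6, and vehicle 001 lay above every evexomostat library for NDUFB6 (185) and NDUFV2 (165) and within their range for NDUFV3 (45.04). Adjusted p without that library was 0.0536, 0.0623 and 0.148. The largest rise in the complex by fold was of NDUFA6-DT, a divergent transcript beside NDUFA6 at 0.46 to 1.45 CPM, with 0.56 ± 0.28 (adjusted p = 0.42). Without vehicle 001 its estimate was 0.64. Whether counting used strand is not given in the sources used here, so reads of such neighbours and antisense transcripts may be mixed.

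**Figure D3:**
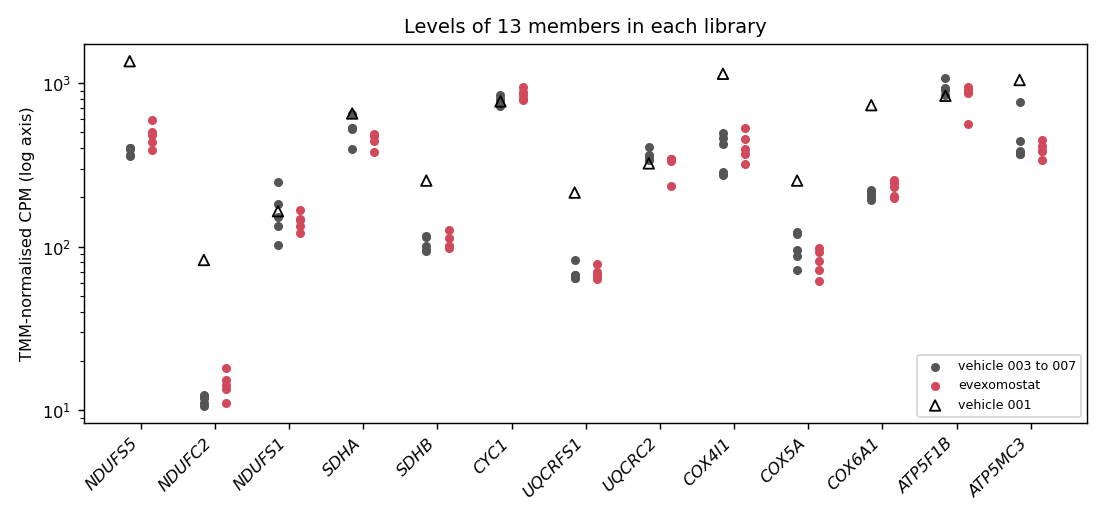
TMM-normalised CPM (log axis) of 13 members in each library: grey points, vehicle 003 to 007; open triangle, vehicle 001; red points, evexomostat. The triangle is far above the other points for NDUFS5, NDUFC2, SDHB, UQCRFS1, COX4I1, COX5A and COX6A1, and among them for NDUFS1, CYC1 and ATP5F1B.

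Complex II, succinate dehydrogenase, also serves the tricarboxylic acid (TCA) cycle. All 4 genes had estimates below 0 over all libraries, from -0.26 to -0.18, and the median without vehicle 001 was -0.10. SDHA, the flavoprotein that oxidises succinate, was at 649, 396, 531, 521 and 530.2 CPM in vehicle 003 to 007, 652 in vehicle 001 and 485, 378, 491, 445 and 478 in the evexomostat libraries. Evexomostat 003 was lowest and the other 4 lay within the vehicle range. The fold change was -0.26 ± 0.15 (adjusted p = 0.484), and -0.20 ± 0.13 without vehicle 001. SDHB, the iron-sulfur subunit, was the complex II gene that vehicle 001 moved most, at 253 CPM, while vehicle 003 to 007 were at 93.7 to 116 and the evexomostat group at 98.3 to 127. Its estimate changed from -0.26 ± 0.24 to 0.058 ± 0.10. The membrane anchors SDHC (203 to 262 and 157 to 229 CPM, 327 in vehicle 001) and SDHD (77.5 to 111 and 78.8 to 90.2, 137) had overlapping groups, with estimates of -0.14 ± 0.12 and -0.049 ± 0.10 without vehicle 001.

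Complex III, the cytochrome bc1 complex, had a median of -0.24 over all libraries and 0.15 without vehicle 001, when 8 of 11 members lay above 0. CYC1, cytochrome c1, was the most abundant by reads and had the only estimate above 0 over all libraries. It was at 726, 798, 749, 763 and 848 CPM in vehicle 003 to 007, 773 in vehicle 001 and 849, 792, 947, 805 and 886 in the evexomostat libraries. The groups overlapped, and vehicle 001 lay among the others, so the fold change of 0.14 ± 0.12 (adjusted p = 0.664) was 0.15 ± 0.090 without it. UQCRFS1, the Rieske iron-sulfur protein, had the largest fall, -0.44 ± 0.30 (adjusted p = 0.584), with 214 CPM in vehicle 001, 63.8 to 83.1 in the other vehicle libraries and 63.4 to 78.2 with evexomostat. Without vehicle 001 it was -0.0072 ± 0.098. Apart from vehicle 001, the large core proteins moved little, with UQCRC1 at 335 to 476 CPM in vehicle 003 to 007 and 336 to 401 with evexomostat. UQCRC2 was at 338 to 407 and 236 to 344, and 323 in vehicle 001 was below all the other vehicle values. Without vehicle 001 the estimates of UQCRC1 and UQCRC2 were -0.095 and -0.17. Evexomostat 003 held the lowest UQCRC2 value, and the next lowest evexomostat value was 333. The 3 members at an unadjusted p under 0.05 without vehicle 001 were the small subunits UQCR10, UQCR11 and UQCRQ. UQCRHL is a near copy of the hinge protein gene UQCRH and UQCRBP1 a pseudogene of UQCRB, so their counts are uncertain.

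Complex IV, cytochrome c oxidase, had the lowest median over all libraries, -0.28, and 0.14 without vehicle 001. COX4I1, the largest nuclear subunit and the most abundant transcript of the complex, was at 287, 461, 275, 427 and 499 CPM in vehicle 003 to 007, 1141 in vehicle 001 and 321, 534, 455, 371 and 396 in the evexomostat libraries. The vehicle libraries fell into a lower pair (003 and 005) and a higher trio (004, 006 and 007), and the evexomostat values covered nearly the same span. Its fold change was -0.31 ± 0.33, and 0.098 ± 0.19 without vehicle 001. COX5A, which sits on the matrix side, had the largest fall of the complex. It was at 87.7, 94.9, 119, 72.4 and 123 CPM in vehicle 003 to 007, 253 in vehicle 001 and 81.5, 97.7, 92.9, 72.3 and 61.8 in the evexomostat libraries. The groups overlapped, evexomostat 007 was the lowest library, and the estimate was -0.62 ± 0.28 (adjusted p = 0.356), or -0.29 ± 0.17 (adjusted p = 0.308) without vehicle 001. It stayed below 0 in both, unlike the complex's median.

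Of the subunits with tissue-restricted partners, the ubiquitous form made up nearly all transcripts. COX6A1 was at 193 to 221 CPM in vehicle 003 to 007 and 197 to 256 with evexomostat (733 in vehicle 001), while its heart and muscle partner COX6A2 had 1 count in all, in evexomostat 005, the library with the high muscle markers; its part in that value was not tested. COX4I2, a lung and hypoxia-linked form, had 3 counts over all libraries, COX8C 3 and COX7B2 1, and COX7A1, the other muscle form, had 1 to 14 counts a library. The partners COX6B1 (104 to 132 and 109 to 170.0 CPM), COX7A2 (166 to 193 and 192 to 212), COX7B (159 to 202 and 155 to 231) and COX8A (197 to 238 and 204 to 284) overlapped between groups without vehicle 001. COX7A2L, a supercomplex factor, was at 129 to 179.9 and 160.4 to 183 CPM, highest in evexomostat 002 apart from vehicle 001. The testis form COX6B2 varied most, from 0.368 to 5.91 CPM in vehicle 003 to 007, with evexomostat values of 1.49 to 3.97 inside that span. NDUFA4 was at 332, 343, 352, 363 and 382 CPM in vehicle 003 to 007, 762 in vehicle 001 and 356, 397, 445, 393 and 401 in the evexomostat libraries, with an estimate of 0.17 ± 0.087 without vehicle 001. NDUFA4L2, its hypoxia-induced paralog, had 3 to 58 counts a library, with 0.0936 to 1.47 and 0.364 to 2.35 CPM and the largest rise among all members, 0.82 ± 0.70 (adjusted p = 0.679), less than 2 standard errors. Without vehicle 001 the estimate of NDUFA4L2 was 0.74.

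Complex V, the ATP synthase, had a median of -0.23 over all libraries and 0.24 without vehicle 001. ATP5F1B, the catalytic beta subunit and its most abundant transcript, was at 918, 935, 851, 907 and 1074 CPM in vehicle 003 to 007, 837 in vehicle 001 and 876, 562, 947, 906 and 881 in the evexomostat libraries. Evexomostat 003 was far below the rest and the others overlapped. The estimate was -0.14 ± 0.15 with vehicle 001 and -0.16 ± 0.14 without. ATP5F1A, the alpha subunit, showed the same low value in evexomostat 003, at 569 to 679.6 CPM in vehicle 003 to 007 and 556, 417, 581, 563 and 592 in the evexomostat libraries. Its estimate without vehicle 001 was -0.18. ATP5MGL, a near copy of the g subunit gene, had the largest fall, -0.92 ± 0.57 (adjusted p = 0.535), on 2.42 CPM in vehicle 001 and at most 0.53 elsewhere, and reads may be shared with ATP5MG. Without vehicle 001 it was -0.10 ± 0.31.

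Of the 4 complex V members whose groups did not overlap without vehicle 001, ATP5IF1, which inhibits ATP hydrolysis by the enzyme, was at 115, 124, 133, 127 and 109 CPM in vehicle 003 to 007 and 136, 194, 162, 139 and 161 in the evexomostat libraries. ATP5PO, the stalk subunit that confers oligomycin sensitivity, was at 209, 218, 206, 225 and 243 and 245, 272, 278, 259 and 272. ATP5MG, the g subunit, was at 151, 157, 174, 167 and 173 and 193, 216, 195, 178 and 195. All evexomostat libraries were higher, by a log2 fold change of 0.39 ± 0.11, 0.27 ± 0.082 and 0.25 ± 0.084 (adjusted p = 0.06, 0.0688 and 0.0953), but vehicle 001 lay above them at 317, 632 and 597 CPM. ATP5MC2, which encodes the c subunit of the rotor ring, was the fourth, at 98.0, 115, 115, 114 and 107 and 116, 149, 142, 119 and 131 CPM, with 206 in vehicle 001.

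The c subunit is made from 3 genes that encode the same mature protein, ATP5MC1, ATP5MC2 and ATP5MC3. ATP5MC3 itself was at 368, 445, 386, 368 and 762 CPM in vehicle 003 to 007, 1045 in vehicle 001 and 338, 409.8, 452, 383 and 385 in the evexomostat libraries. Vehicle 007 was high besides vehicle 001, and the groups overlapped. As a share of the 3 transcripts, counted per kilobase, ATP5MC3 made up 67.6, 64.7, 62.8, 62.1 and 75.8% in vehicle 003 to 007, 72.4% in vehicle 001 and 60.4, 58.9, 60.5, 61.6 and 60.3% in the evexomostat libraries. This share was lower in every evexomostat library than in every vehicle library, vehicle 001 included: 67.6% ± 5.51 (SD, n = 6) against 60.3% ± 0.953 (SD, n = 5). The highest evexomostat and lowest vehicle share differed by less than the SD of the vehicle group. ATP5MC1 (15.5% ± 2.55 and 18.7% ± 0.648) and ATP5MC2 (16.9% ± 3.41 and 21.0% ± 1.08) made up the rest. The share was singled out after the values were seen and was not tested.

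Per kilobase of transcript, the median level of tested subunits was 121 CPM in complex I, 173 in II, 210 in III, 338 in IV and 260 in V, from 6.77 for ATP5F1E to 1041 for UQCRH. These are means over all 11 libraries of both groups, vehicle 001 included, which was raised unequally. Its summed level was 7154 CPM in complex IV, against 2214 to 2621 in the other vehicle libraries. In complex II it was 1369, against 813 to 1056.

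Transcript length tracked the way vehicle 001 differed. Members up to 1000 bases long (58 tested) stood at a median of 3.10 times the other vehicle libraries there, and longer ones (29) at 1.72 times. Across the 87 members, which share the libraries, log2 length and the log2 ratio had a Pearson correlation of -0.47, and without vehicle 001 length and log2 fold change had one of -0.39. Of the 27 members higher at an unadjusted p of 0.05 without that library, 25 were among the 58 short ones. Evexomostat 003 was highest of the 5 for 41 of the 58 short members and lowest for 1. Of the 29 long ones it was highest for 9 and lowest for 12. Its level was a median of 1.21 times the mean of the other evexomostat libraries for short members and 0.995 times for long ones, and its length slope of -0.064 was the lowest in its group. An offset for length and GC content brought the median without vehicle 001 from 0.17 to 0.088, and the counts at an unadjusted p of 0.05 to 14 higher (10.6% of all genes) and 1 lower (11.6%). Without vehicle 001 and evexomostat 003 the median was 0.13, edgeR called 0 members (1.34% higher and 2.56% lower), and 14 were higher (9.61%) and 0 lower (13.5%) at an unadjusted p of 0.05. How far length accounts for the differences was not tested.

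**Figure D4:**
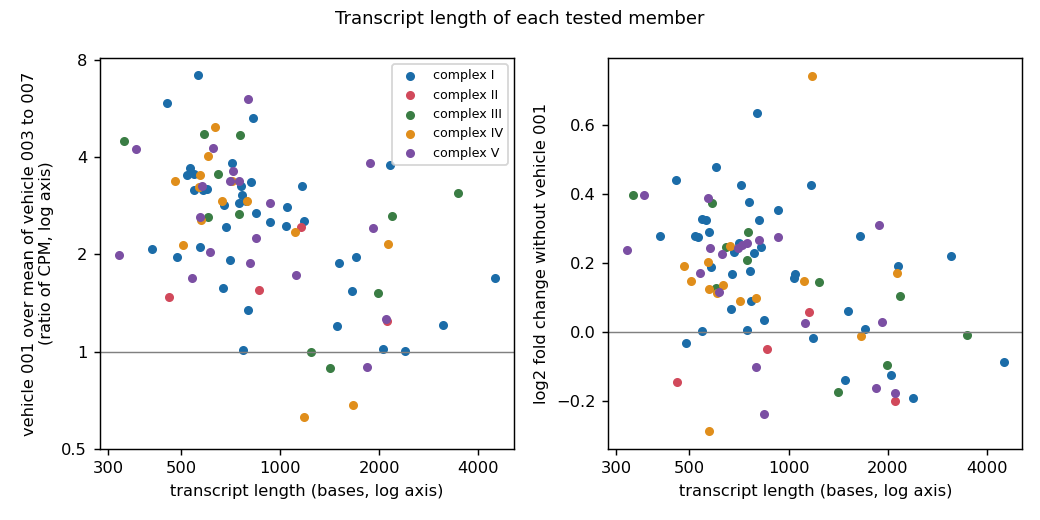
Transcript length (log axis) of each tested member against its level in vehicle 001 over the mean of vehicle 003 to 007 (left, log axis) and against its log2 fold change without vehicle 001 (right), coloured by complex. Members up to 1000 bases reach 7.17 times (NDUFC2) in vehicle 001, and several longer ones, such as NDUFS1 and UQCRC2, lie near 1.

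Genes around the chain were described with lists chosen with earlier results known. Among 54 tested genes listed under assembly of the complexes, 4 rose past the threshold without vehicle 001 (1.98% of all genes) and 0 fell (3.24%): NDUFAF8 of complex I, from 15.8 ± 1.44 to 25.2 ± 3.20 CPM (SD, 5 libraries each; adjusted p = 0.0119), UQCC2 (26.3 ± 3.16 to 42.1 ± 7.40; 0.0171) and UQCC3 (14.5 ± 2.93 to 22.8 ± 3.85; 0.0398) of complex III, and SLIRP (31.2 ± 3.74 to 41.9 ± 5.25; 0.0496). SLIRP was listed with complex IV but stabilises mitochondrial messenger RNA. Over all libraries their adjusted p was 0.985, 0.654, 0.908 and 0.882. Of 15 regulators of mitochondrial biogenesis, 0 rose and 1 fell without vehicle 001 against the same background, PPARGC1B, a coactivator of mitochondrial genes, from 64.9 ± 8.75 to 41.8 ± 4.91 CPM (-0.63 ± 0.12, adjusted p = 0.014; -0.51 ± 0.19 and 0.262 over all libraries). NRF1, whose motif is shown above, was at 21.4 ± 2.96 and 24.7 ± 1.23 CPM (adjusted p = 0.271).

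Of 10 hypoxia-linked genes listed around the switch from respiration to glycolysis, not all of which act in it, 4 fell without vehicle 001 (3.24% of all genes) and 0 rose (1.98%). PDK1, which shuts pyruvate out of the TCA cycle, went from 72.3 ± 47.9 to 28.1 ± 3.66 CPM (adjusted p = 0.0429), and the glucose transporter SLC2A1 from 426 ± 152 to 181 ± 31.2 (0.0175). BNIP3L, which marks mitochondria for removal, and the carbonic anhydrase CA9 were the others (-0.94 ± 0.21 and -4.03 ± 0.84; adjusted p = 0.0312 and 0.0233). Over all libraries 0 of the 10 passed edgeR's threshold and 7 were lower at an unadjusted p of 0.05 (8.55% of all genes), and the list's median was -0.60, and -0.67 without vehicle 001. The vehicle libraries were uneven: the list's summed level was 2456, 2205, 1686, 1531 and 2899 CPM in vehicle 003 to 007 and 1570 in vehicle 001. In evexomostat 002, 003, 004, 005 and 007 it was 1443, 1083, 1381, 1275 and 1550, so the groups overlapped. The 14 TCA cycle enzymes had medians of -0.20 and -0.15 with 0 past the threshold in either fit; at an unadjusted p of 0.05, 0 were higher (4.82% of all genes) and 1 lower (8.55%) with vehicle 001, and 1 higher (10.9%) and 4 lower (13.5%) without it. Ribosomal proteins, with a median transcript length of 764 bases (cytosolic) and 1137 (mitochondrial), had medians near 0 over all libraries and 0.36 (cytosolic, 82 tested) and 0.20 (mitochondrial, 76 tested) without vehicle 001, when 8 and 10 passed the threshold as higher (1.98% of all genes) and 0 as lower.

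**Figure D5:**
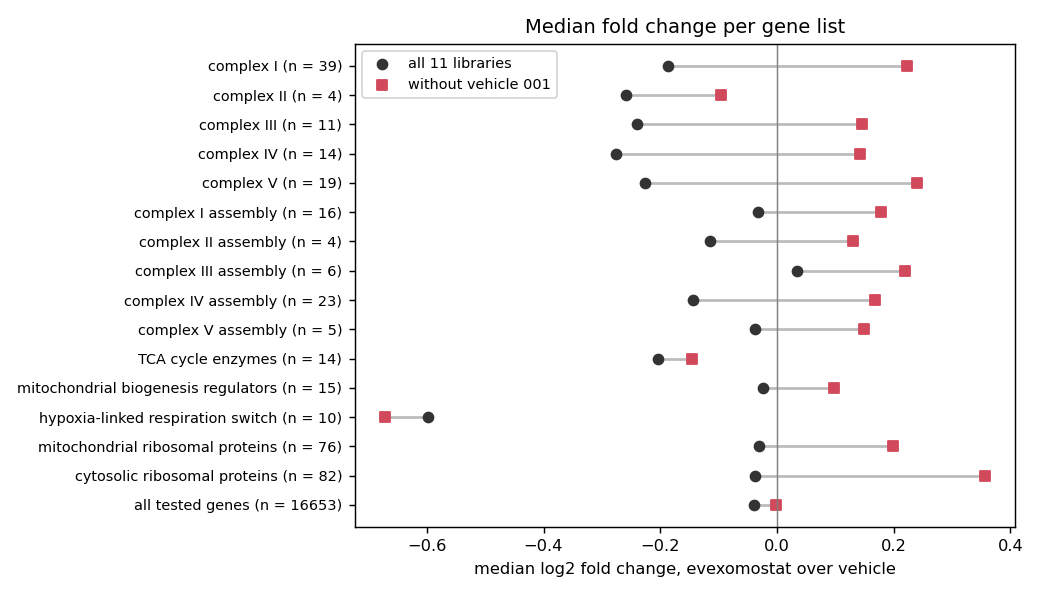
Median log2 fold change of evexomostat over vehicle for each list of genes, from all 11 libraries (black circles) and without vehicle 001 (red squares), with the number tested. Removing the library moves every list but the hypoxia-linked one to the right. Complex II (-0.26 to -0.10) and the TCA cycle enzymes (-0.20 to -0.15) stay below 0, and the hypoxia-linked list lies at -0.60 and -0.67.

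In the authors' deposited table, 0 of the 94 members had an FDR under 0.05 and 0 a p-value under 0.05, the smallest FDR among them was 0.603, and 28 members had a log2 fold change above 0 and 64 below.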

How the data were processed

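RNA-seq of 11 tumour libraries was analysed. Per the submitters' processing notes, bcl2fastq 2.17, STAR 2.7.5c, featureCounts of Subread and edgeR were used, with the build GRCh37 (hg19); their settings, and how strand and reads from the mouse were treated, are not given in the sources used here. The authors deposited raw counts per gene symbol, RPM (counts scaled to a common column total) and a comparison table with log2 fold changes and p-values. Groups come from the sample titles, and columns were matched through the sample descriptions.

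Counts were filtered with filterByExpr (minimum count 10, minimum total 15), scaled with TMM factors and tested with edgeR 4.0.16 (quasi-likelihood F-test, R 4.3.3, two-sided), adjusted by Benjamini-Hochberg over all 16653 genes (16565 without vehicle 001), threshold 0.05. Standard errors were derived from the F statistic and the fold change. DESeq2 1.42.0, limma 3.58.1 (voom, quality weights, and limma-trend on log2 RPM with a pseudocount of 1 or 0.1), other scalings and filters, leaving out each library and a replicate block were alternatives. Transcript length is the median and GC content the mean over the GENCODE basic transcripts of each symbol, protein-coding ones where there were any. Both were found for 94.6% of tested genes and entered the offset as splines with 5 degrees of freedom. The tests were checked on simulated counts; limma-trend understated the changes of low genes there because of its pseudocount.

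Named members are the largest rise, largest fall and most abundant transcript of each complex, the catalytic core and the isoform pairs; NDUFB6, NDUFV2, NDUFV3, NDUFA7, NDUFB11, NDUFS6, UQCRQ, ATP5IF1, ATP5PO, ATP5MG, ATP5MC1 and ATP5MC3 were added after their values were seen. The members and gene lists were chosen with earlier results of these data known. One item is not reported here.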

Additional observations from a re-analysis of the deposited data

Results flagged for a closer look

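A check for single values far from the rest of their group covered the named members and the summed level of each complex in both groups (94 groups of 5 or 6 libraries, 188 ends). Values whose gap to the nearest library exceeded Dixon's critical share of the group's range numbered 34. Chance alone picks about 1 group in 20 where groups are independent. Here they share the same libraries, the sums hold the same members, and some members were named for their values. The 34 therefore cannot be set against that share.

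Vehicle 001 gave 30 of them, each the highest of its group. In complex I these were NDUFC2 at 82.8 CPM (10.6 to 12.3 in the other vehicle libraries), NDUFS5 at 1362, NDUFV1 at 451, NDUFB6 at 185, NDUFV2 at 165, NDUFA7 at 143, NDUFB11 at 283 and NDUFS6 at 405. SDHB of complex II was at 253, and of complex III UQCRFS1 was at 214 and UQCRQ at 393. In complex IV, COX4I1 was at 1141, COX5A at 253, COX6A1 at 733, COX6B1 at 376, COX7A2 at 589, COX7A2L at 355, COX7B at 697, COX8A at 452 and NDUFA4 at 762. In complex V, ATP5MC2 was at 206, ATP5MGL at 2.42, ATP5IF1 at 317, ATP5PO at 632 and ATP5MG at 597. The summed CPM was 10459 in complex I (3680 to 4308 in the others), 4739.8 in III, 7154 in IV, 7635 in V and 31357 over all members. The sum of complex II was not among them.

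Evexomostat 003 gave 3, each the lowest of its group: ATP5F1B at 562 CPM (876 to 947 in the other evexomostat libraries), ATP5F1A at 417 and UQCRC2 at 236. Evexomostat 002 gave COX7A2L, the highest of its group at 182.5 CPM (160.4 to 167). The causes were not tested.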

How the results depend on the processing

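The 0 calls among members held in the 11 fits that left out 1 library each and in 14 of the other 17 alternatives. The exceptions were library sizes only without vehicle 001 (5 members higher), leaving out vehicle 001 and evexomostat 005 (1 higher, UQCRQ) and the 8 libraries whose numbers occur in both groups, fitted without a block (2 higher, NDUFB11 and NDUFA7; background 1.36%). Leaving out each library in turn gave 0 to 27 members higher and 0 to 2 lower at an unadjusted p of 0.05. The shares of all genes were 4.82% higher and 8.55% lower over all 11 libraries, and 10.9% and 13.5% without vehicle 001. For the other fits of this kind they are not given here, so the 2 lower cannot be set against their own background. The 27, and every median above 0, came without vehicle 001. The medians ranged over -0.28 to 0.17 for all members, -0.25 to 0.22 for complex I, -0.29 to -0.097 for II, -0.33 to 0.15 for III, -0.37 to 0.14 for IV and -0.31 to 0.24 for V. The same counts higher were 10 with quality weights (background 11.3%), 2 with limma-trend at either pseudocount, 2 with library sizes only (8.12%), 41 with library sizes only without vehicle 001 (14.5%), 28 in the 8 libraries without a block (10.3%), 26 without vehicle 001 and evexomostat 005 (9.66%), and 14 without vehicle 001 with the length and GC offset or without evexomostat 003. The count lower, 1 over all libraries, was 0 with upper quartile scaling, limma-voom, quality weights, limma-trend, the filter at a mean log2 CPM of 1, library sizes only with or without vehicle 001, and without vehicle 001 and either evexomostat 003 or 005. Medians of limma-trend for all genes shifted from -0.039 to 0.075 and 0.098. Library sizes only changed the split of calls over all genes to 0.204% higher and 0.168% lower.

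Whether shared replicate numbers pair the libraries is not known. The correlation of deviations from the group means was -0.27 for number 003, 0.066 for 004, 0.049 for 005 and -0.10 for 007. These values cannot decide it, since the vehicle mean includes vehicle 001 and libraries of unlike number were not compared. With a replicate block on those 8 libraries, 0 members passed and 22 were higher and 0 lower at an unadjusted p of 0.05 (background 8.48%), and log2 fold changes opposite in sign to those over all libraries were ATP5MG 0.25, ATP5PO 0.30, COX4I1 0.24, COX6A1 0.18, COX6B1 0.26, COX7A2 0.17, COX7A2L 0.066, COX7B 0.16, COX8A 0.15, NDUFA4 0.21, NDUFB11 0.56, NDUFB6 0.40, NDUFC2 0.40, NDUFS5 0.39, NDUFS6 0.37, NDUFV1 0.084, SDHB 0.032 and UQCRQ 0.40. Without the block they were ATP5MG 0.25, ATP5PO 0.30, COX4I1 0.20, COX6A1 0.18, COX6B1 0.26, COX6B2 -0.39, COX7A2 0.17, COX7A2L 0.056, COX7B 0.16, COX8A 0.16, NDUFA4 0.21, NDUFB11 0.57, NDUFB6 0.40, NDUFC2 0.41, NDUFS5 0.40, NDUFS6 0.37, NDUFV1 0.078, SDHB 0.034 and UQCRQ 0.41.

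Of the members whose sign turned, 5 passed the threshold in that setting: NDUFB11 in the 8 libraries without a block, ATP5PO, NDUFB6 and NDUFS6 with library sizes only without vehicle 001, and UQCRQ without vehicle 001 and evexomostat 005. Signs of named members also turned under these settings. With the length and GC offset these were ATP5PO 0.014, COX7A2L 0.023, NDUFA4 0.039 and NDUFB6 0.17. With library sizes only they were ATP5PO 0.013, COX8A 0.013, NDUFA4 0.037, NDUFB11 0.10 and NDUFB6 0.050. Limma-trend gave ATP5MG 0.032, ATP5PO 0.11, COX7A2L 0.041, COX8A 0.047, NDUFA4 0.077, NDUFB11 0.23, NDUFB6 0.18, NDUFS5 0.10, NDUFS6 0.12, NDUFV1 0.0030 and UQCRQ 0.078 at a pseudocount of 1, and ATP5MG 0.033, ATP5PO 0.11, COX7A2L 0.041, COX8A 0.047, NDUFA4 0.077, NDUFB11 0.23, NDUFB6 0.18, NDUFS5 0.10, NDUFS6 0.13, NDUFV1 0.0030 and UQCRQ 0.080 at 0.1. Limma-voom gave ATP5PO 0.00093, NDUFB11 0.13, NDUFB6 0.094 and NDUFS6 0.019. Quality weights gave ATP5MG 0.18, ATP5PO 0.26, COX4I1 0.080, COX6A1 0.086, COX6B1 0.13, COX7A2 0.14, COX7A2L 0.12, COX7B 0.048, COX8A 0.16, NDUFA4 0.18, NDUFB11 0.36, NDUFB6 0.34, NDUFC2 0.22, NDUFS5 0.25, NDUFS6 0.32, NDUFV1 0.059, SDHB 0.068, UQCRFS1 0.025 and UQCRQ 0.26. Without vehicle 001 and evexomostat 003 they were ATP5MG 0.20, ATP5PO 0.25, COX6A1 0.081, COX6B1 0.089, COX6B2 -0.026, COX7A2 0.17, COX7A2L 0.14, COX7B 0.013, COX8A 0.18, NDUFA4 0.16, NDUFB11 0.35, NDUFB6 0.39, NDUFC2 0.22, NDUFS5 0.23, NDUFS6 0.31, NDUFV1 0.031, SDHB 0.069, UQCRFS1 0.0080 and UQCRQ 0.28. Without vehicle 001 and evexomostat 005 they were ATP5MG 0.28, ATP5PO 0.28, COX4I1 0.13, COX6A1 0.15, COX6B1 0.24, COX7A2 0.19, COX7A2L 0.15, COX7B 0.13, COX8A 0.17, NDUFA4 0.17, NDUFB11 0.46, NDUFB6 0.42, NDUFC2 0.34, NDUFS5 0.36, NDUFS6 0.36, NDUFV1 0.058, SDHB 0.082 and UQCRQ 0.43. Without vehicle 001 and with the offset they were ATP5MG 0.17, ATP5PO 0.22, COX4I1 0.017, COX6A1 0.040, COX6B1 0.093, COX6B2 -0.056, COX7A2 0.11, COX7A2L 0.088, COX7B 0.013, COX8A 0.014, NDUFA4 0.19, NDUFB11 0.32, NDUFB6 0.30, NDUFC2 0.23, NDUFS5 0.24, NDUFS6 0.23, SDHB 0.018, UQCRFS1 0.068 and UQCRQ 0.29. Without vehicle 001 and with library sizes only they were ATP5MG 0.31, ATP5PO 0.33, COX4I1 0.16, COX6A1 0.18, COX6B1 0.26, COX7A2 0.25, COX7A2L 0.21, COX7B 0.18, COX8A 0.21, NDUFA4 0.23, NDUFB11 0.48, NDUFB6 0.43, NDUFC2 0.38, NDUFS5 0.39, NDUFS6 0.38, NDUFV1 0.12, SDHB 0.11, SDHD 0.010, UQCRFS1 0.051 and UQCRQ 0.43. Leaving out 1 library, the ranges of members whose sign turned were ATP5IF1 -0.042 to 0.39, ATP5MC1 -0.098 to 0.17, ATP5MG -0.38 to 0.25, ATP5PO -0.20 to 0.27, COX4I1 -0.43 to 0.098, COX6A1 -0.48 to 0.12, COX6B1 -0.36 to 0.20, COX6B2 -0.16 to 0.53, COX7A2 -0.38 to 0.19, COX7A2L -0.23 to 0.15, COX7B -0.59 to 0.11, COX8A -0.19 to 0.15, NDUFA4 -0.15 to 0.17, NDUFA7 -0.074 to 0.48, NDUFB11 -0.13 to 0.43, NDUFB6 -0.19 to 0.38, NDUFC2 -0.84 to 0.32, NDUFS5 -0.28 to 0.33, NDUFS6 -0.26 to 0.32, NDUFV1 -0.21 to 0.062, NDUFV2 -0.050 to 0.36, SDHB -0.33 to 0.058 and UQCRQ -0.44 to 0.37. All but ATP5IF1, ATP5MC1, NDUFA7 and NDUFV2 turned when vehicle 001 was left out. Those 4 turned below 0 without other libraries (5, 5, 6 and 7 of the fits), COX6B2 also without vehicle 004, 006 or 007 or evexomostat 002, and NDUFB11 also without evexomostat 002 or 005. The other causes were not tested. Members under 3 counts in a library are below what this depth can compare.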
